A study of Sparus aurata with 9 samples.

Results

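Cytokines, chemokines, their receptors and the Socs genes were described in cultured myoblasts of gilthead sea bream (Sparus aurata), the precursor cells of its skeletal muscle. The genes were chosen by symbol, with earlier results of these data known: interleukins and their receptors, C-C and C-X-C chemokines with their receptors, atypical chemokine receptors, colony-stimulating factors, members of the Il-6 family, Tnf ligands, receptors and induced proteins, Socs and Cish, the cyclooxygenases and the inhibitors of NF-kappaB, with il17rd left out. This gave 91 of the 27159 genes in the table, of which 30 encode ligands, 41 receptors, 14 feedback inhibitors and 6 other induced proteins. The genes crlf1a and crlf1b, named as receptor-like factors, were counted with the ligands because their mammalian protein is secreted together with Clcf1.

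RNA was sequenced in 9 libraries, 3 for each of 3 treatments of myoblasts isolated from the fast muscle of fingerlings. At day 8 of culture, when proliferating cells and newly fusing myotubes were both present, all cells spent 12 h without amino acids. For the following 24 h, the AA cells received DMEM, a complete medium that contains amino acids. The Igf-1 cells received the medium lacking amino acids, to which recombinant sea bream Igf-1 and its carrier, bovine serum albumin, were added, and the CTR cells stayed in the medium lacking amino acids, for 36 h in all. No serum was given in any treatment. DMEM differs from the CTR medium in more than its amino acids, and these differences cannot be told apart from that of the amino acids. Likewise, the CTR medium held no albumin, so Igf-1 and its carrier cannot be told apart. No source used here says which of the study's cultures each library came from, so the p-values below measure the spread between these libraries, which may be partly technical.

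Cytokines are secreted proteins that act on receptors of the same or neighbouring cells. Receptors of the Il-6 family signal through Jak kinases and Stat transcription factors, which switch on Socs and Cish, proteins that in turn block the receptor, while Tnf receptors signal through NF-kappaB, which switches on its own inhibitors, the nfkbi genes. In mammalian muscle, cytokines made by the muscle cells themselves are known to act on the proliferation and fusion of myoblasts, and chemokines on their migration.

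The libraries held 48725967 to 67887824 estimated counts each. None of the 22 muscle marker genes was at 0 in all libraries. They summed to 12743 to 16219 FPKM in AA, 9465 to 10657 in Igf-1 and 6268 to 7852 in CTR, where FPKM is a level scaled to the length of the transcript and to the size of the library. Their presence bears on the tissue and cannot check the treatment labels. On the second axis of a principal component analysis, AA replicate 2 and CTR replicate 3 stood apart, at 88.3 and 59.2 against -50.2 to 16.6 for the other 7 libraries. Markers of leukocytes, a possible source of cytokine transcripts, were present: 18 marker symbols gave 12 genes, none of these was at 0 in all libraries, and they summed to 109 to 152 FPKM in AA, 88.0 to 136 in Igf-1 and 67.0 to 101 in CTR. Of these, mpx, a gene of neutrophils, averaged 0.00736 FPKM and cd79a, a gene of B cells, 0.0425 FPKM. Each is 1 gene, so these values cannot show whether the cell type was absent. Others of the list, ncf1 and cybb, averaged 0.168 and 0.582 FPKM, and mpeg1.2, a macrophage marker, 11.1 FPKM. The genes lcp1 and cd74a averaged 40.0 and 34.2 FPKM, a level that only 6 of the 91 members exceeded. In bulk RNA, fewer cells of a type and less RNA per cell cannot be told apart.

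Most members were expressed at a low level. Averaged over the 9 libraries, 52 of the 91 were above 1 FPKM, 19 above 10 FPKM and 5 above 50 FPKM, with a median of 1.35 FPKM. The 5 above 50 FPKM were ccl25b, CXCL9, socs3b, nfkbiaa and nfkbiab, so that a pair of chemokines stood beside the inhibitors of the Stat and the NF-kappaB pathways. A filter on low counts kept 77 members among 17687 genes tested, and 14 members did not pass it: 6 ligands, 5 receptors, 2 inhibitors and 1 cyclooxygenase gene, the highest of them at 0.0562 FPKM. CCL21, cxcr2, il17a/f1 and socs4 were at 0 in all 9 libraries.

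**Figure D1:**
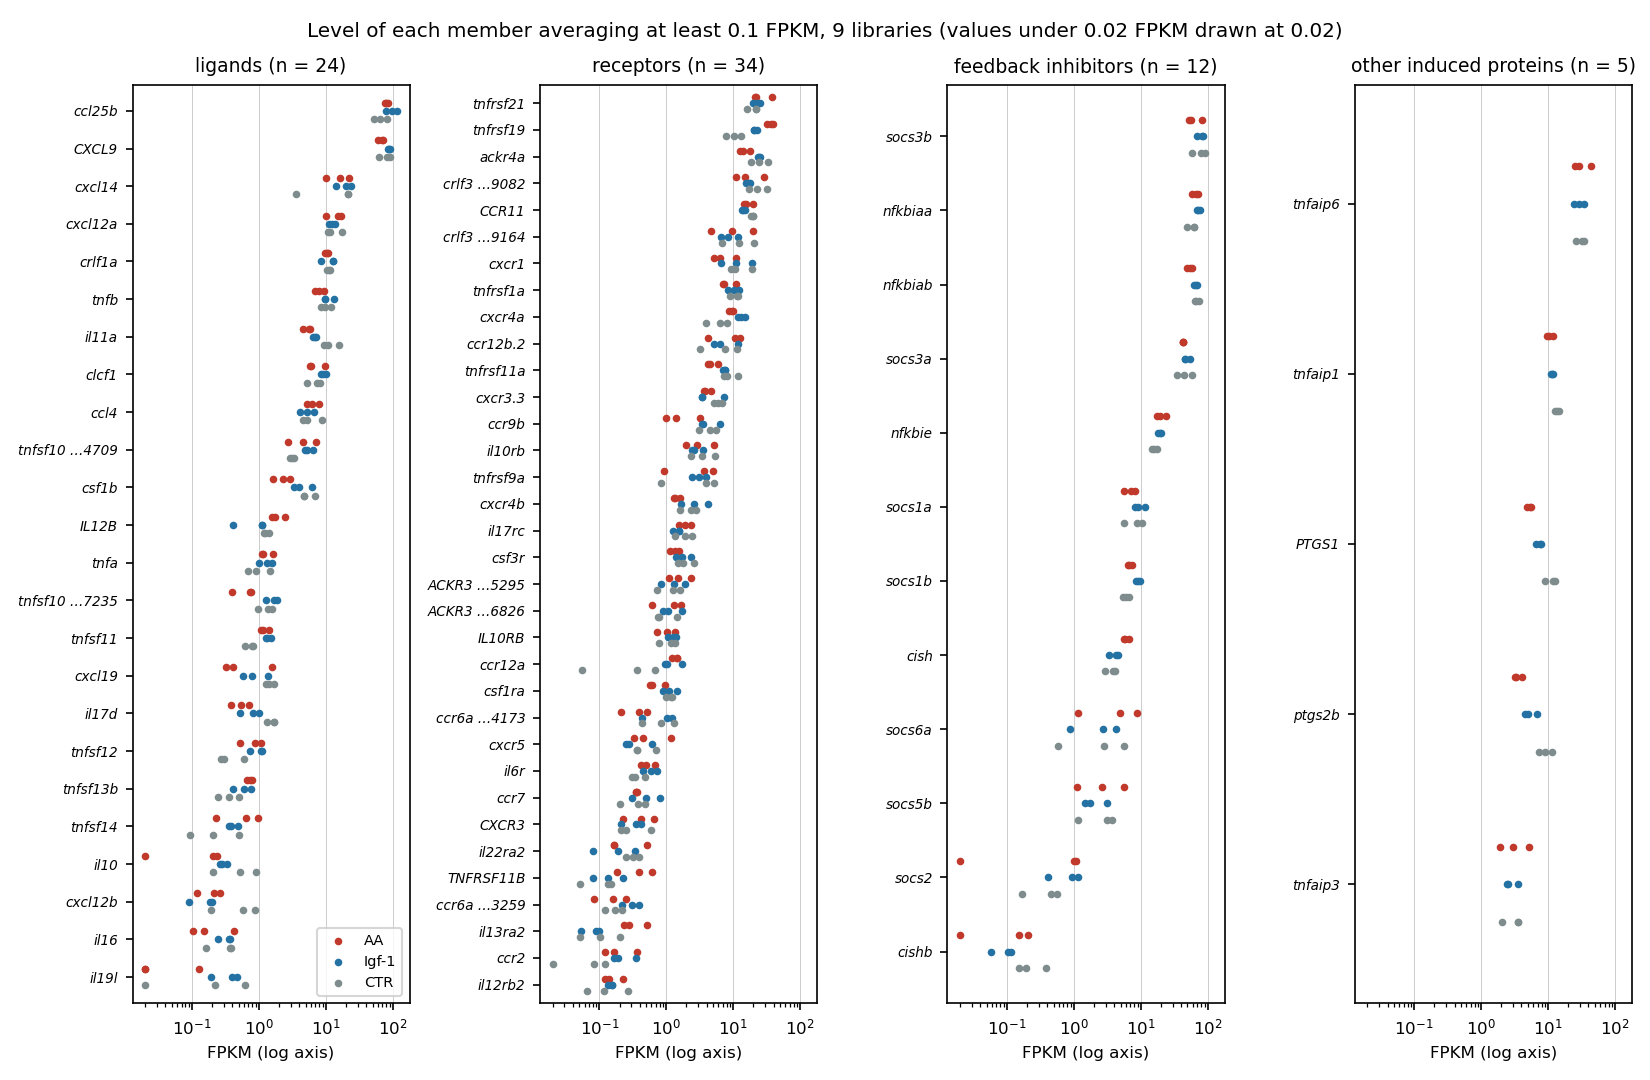
Level of each member that averaged at least 0.1 FPKM, by role, on a log axis in FPKM; each point is 1 library, with AA above Igf-1 and CTR in each row, and values under 0.02 FPKM are drawn at 0.02. The highest levels are those of ccl25b, CXCL9, socs3b and the nfkbia genes, and most receptors lie under 10 FPKM.

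Among the ligands, the chemokine ccl25b, whose relatives in mammals attract T cells, averaged 80.6 FPKM over the 9 libraries. Its levels in FPKM were 79.7, 75.3 and 83.8 in AA, 116, 96.6 and 78.0 in Igf-1 and 80.8, 63.5 and 52.3 in CTR. On this scale the groups overlapped, while its normalized counts, which are scaled by TMM to the mean library size, were 1673, 1715 and 1468 in AA, 2279, 2091 and 1755 in Igf-1 and 1621, 1241 and 1396 in CTR, with all Igf-1 libraries above all others. The log2 fold change of Igf-1 against CTR was 0.52 (edgeR adjusted p = 0.26). CXCL9, named after a chemokine that interferon induces in mammals, had levels of 68.3, 72.0 and 59.9 in AA, 88.5, 84.0 and 89.9 in Igf-1 and 81.7, 62.1 and 89.7 in CTR, again in FPKM. Of the 7 chemokine ligands tested, 0 were called in any comparison by edgeR or DESeq2, and 1, 2 and 0 had an unadjusted p under 0.05 in AA against CTR, Igf-1 against CTR and AA against Igf-1, where 28.2%, 9.11% and 21.4% of all genes had. Neither ccl25b nor CXCL9 passed the test in any comparison.

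Of the Il-6 family, clcf1, a ligand, and crlf1a, its partner in secretion, averaged 7.77 and 10.8 FPKM. The cytokine il6 itself was almost absent, with 8 estimated counts in AA replicate 2 and 0 in the other 8 libraries, and was not tested. The gene that the table names il11a, and that its description leaves uncharacterized, averaged 8.03 FPKM. The receptor il6r averaged 0.501 FPKM. Symbols for lif, lifr, il6st, osmr, il15, il15ra, il34 and tnfrsf12a found no gene and are not analysed here.

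The AA cells were compared with the CTR cells to see what the medium with amino acids changed. A gene was called at a Benjamini-Hochberg adjusted p of 0.05 or less (edgeR's quasi-likelihood test, adjusted over all 17687 genes) and a fold threshold of 1 on the log2 scale in either direction. Of the 77 tested members, 1 was higher, which is 1.3% against 4.83% of all genes tested, and 5 were lower, which is 6.49% against 3.79%. DESeq2 called 2 higher and 7 lower, adding ccr12a among the higher and ccr9b and il17d among the lower ones. The share of all genes that DESeq2 called is not given, here or below. The edgeR shares are not a background for its counts. The higher gene was tnfrsf19, a receptor of the Tnf family, and the lower ones were ptgs2b and PTGS1, the cyclooxygenases of prostaglandin synthesis, the ligands il11a and csf1b, and 1 of the genes named tnfsf10. The median log2 fold change of the 77 was -0.18, against -0.01 over all genes, with 30 above and 47 below 0. With no fold threshold, 1 member was higher (7.46% of all genes) and 8 were lower (7.74%), which added tnfrsf11a, ackr4a and csf1ra. In 22 of the 77, the AA and CTR libraries did not overlap, which is 28.6% against 30.7% of all genes, and 23 had an unadjusted p under 0.05, where 28.2% of all genes had.

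**Figure D2:**
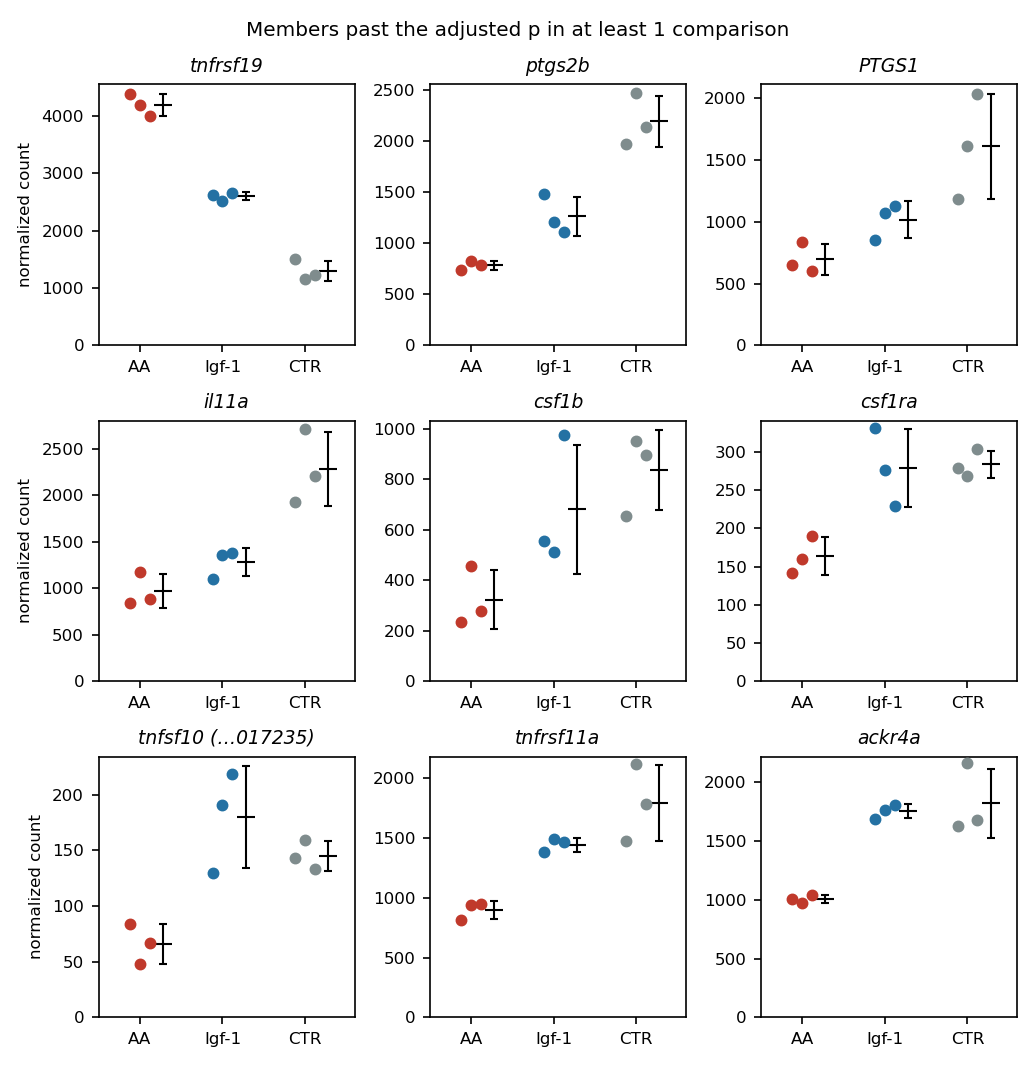
Normalized counts of the 9 members that passed the adjusted p in at least 1 comparison; each point is 1 library of AA, Igf-1 or CTR, and the bar beside it is the mean with its SD (n = 3). tnfrsf19 is highest in AA and lowest in CTR, and the other 8 are lowest in AA.

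tnfrsf19 (ENSSAUG00010008977), known in mammals as a Tnf receptor of embryonic and epithelial tissue, was the only member that rose with AA in edgeR's test. Its normalized count was 4377, 4195 and 3989 in AA, against 1498, 1163 and 1223 in CTR. The Igf-1 libraries lay between them, with 2620, 2522 and 2661. No group overlapped with another. The log2 fold change of AA against CTR was 1.69 (SE 0.14, edgeR adjusted p = 9.5e-05), or 3.23-fold, and tnfrsf19 passed in all 18 alternatives tried. The muscle marker sums lay in the same order, with 10 of 22 genes called higher in AA than in CTR, where 4.83% of all genes were. Whether this bears on tnfrsf19 was not tested.

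Both cyclooxygenase genes that were tested fell with AA. ptgs2b (ENSSAUG00010014303), the gene of the inducible enzyme, had 742, 822 and 783 normalized counts in AA, against 1970, 2466 and 2135 in CTR. Igf-1 had 1479, 1204 and 1105. The log2 fold change of AA against CTR was -1.48 (SE 0.16, edgeR adjusted p = 0.00035), which held in all 18 alternatives. The AA libraries lay below all Igf-1 and CTR libraries, and the Igf-1 libraries below all CTR libraries. PTGS1 (ENSSAUG00010021005), the constitutive enzyme in mammals, had 651, 836 and 602 normalized counts in AA, against 1183, 1615 and 2036 in CTR, a log2 fold change of -1.21 (SE 0.23, edgeR adjusted p = 0.0056). PTGS1 no longer passed the fold threshold without CTR replicate 3, nor on the log2(FPKM + 1) scale. The other gene of this symbol, ptgs1, averaged 0.0156 FPKM and was not tested.

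Among the ligands that fell with AA, il11a (ENSSAUG00010014831) had 848, 1181 and 883 normalized counts in AA, against 1926, 2710 and 2207 in CTR, with a log2 fold change of -1.23 (SE 0.19, edgeR adjusted p = 0.0021), and passed in all alternatives but log2(FPKM + 1), where it fell just short of the fold threshold. csf1b (ENSSAUG00010019341), which in mammals is the growth factor of macrophages, had 235, 458 and 278 in AA, against 656, 952 and 897 in CTR. Its log2 fold change was -1.36 (SE 0.33, edgeR adjusted p = 0.018), and csf1b did not pass without AA replicate 1, AA replicate 3 or CTR replicate 2, nor the fold threshold on log2(FPKM + 1), with an adjusted p of 0.0013 to 0.091 over the alternatives. The gene tnfsf10 (ENSSAUG00010017235), named after the death ligand Trail, had 83.8, 47.6 and 66.7 in AA, against 143, 159 and 133 in CTR, a log2 fold change of -1.13 (SE 0.32, edgeR adjusted p = 0.037), which held in 5 of 18 alternatives, with log2 fold changes of -1.30 to -0.49 and adjusted p of 0.0069 to 0.10. It was lost without any of the AA libraries, Igf-1 replicate 2 or 3 and CTR replicate 1 or 2, each left out alone. The other tnfsf10 gene (ENSSAUG00010024709) had 715, 460 and 949 in AA, against 502, 461 and 592 in CTR, and did not pass.

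tnfrsf11a, ackr4a and csf1ra are receptors. tnfrsf11a (ENSSAUG00010013252), the receptor of the ligand tnfsf11 in mammals, had 815, 941 and 945 normalized counts in AA, against 1475, 2116 and 1783 in CTR, a log2 fold change of -0.99 (SE 0.16, edgeR adjusted p = 0.0029), and crossed the fold threshold without AA replicate 2, AA replicate 3 or CTR replicate 1. ackr4a (ENSSAUG00010002911), known as a scavenger of chemokines that does not signal through G proteins, had 1009, 971 and 1038 in AA, against 1629, 2159 and 1679 in CTR. Its log2 fold change was -0.86 (SE 0.15, edgeR adjusted p = 0.0038). csf1ra (ENSSAUG00010016701), the receptor of csf1 and a marker of macrophages, had 141, 160 and 190 in AA, against 279, 268 and 303 in CTR, with a log2 fold change of -0.79 (SE 0.23, edgeR adjusted p = 0.046), which passed the adjusted p in 3 of 18 alternatives. In AA, csf1b and csf1ra, ligand and receptor, both lay below all CTR libraries. Leukocyte markers summed to 109 to 152 FPKM in AA, against 67.0 to 101 in CTR, a sum to which lcp1 and cd74a contributed most. These sums are not scaled by TMM. In normalized counts, cd74a had 5829, 4513 and 3931 in AA, against 3677, 2420 and 5083 in CTR, and overlapped. lcp1 had 7793, 6519 and 5776 in AA, against 4365, 2738 and 4640 in CTR, and did not. Of the 10 tested leukocyte marker genes 1, coro1a, was called higher (log2 fold change 1.62, edgeR adjusted p = 0.0049), where 4.83% of all genes were. The gene lcp1 passed the adjusted p alone (log2 fold change 0.77, edgeR adjusted p = 0.041). The other tested markers were mixed in direction, and none of them passed. mpeg1.2, MARCO and spi1b had log2 fold changes of -0.01, -0.25 and -0.54. Those of irf8, cybb, ncf1, ptprc and cd74a were 0.64, 0.69, 0.55, 0.25 and 0.35. The part of leukocytes in these values was not tested.

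Igf-1 cells were compared with CTR cells to see what the hormone, given with its carrier, changed. The CTR libraries are the same as above. 1 member was higher, which is 1.3% against 0.141% of all genes tested, and 0 were lower, against 0.119%. With the same fold threshold DESeq2 called 0 higher and 0 lower, though tnfrsf19, ptgs2b and il11a passed its adjusted p. In edgeR, 13 members had an unadjusted p under 0.05, which is 16.9% against 9.11% of all genes. The median log2 fold change of the 77 was 0.00, as was that of all genes. In 20 of 77 members the groups did not overlap, which is 26% against 17.2% of all genes.

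The called member was again tnfrsf19, with 2620, 2522 and 2661 normalized counts in Igf-1, against 1498, 1163 and 1223 in CTR, a log2 fold change of 1.01 (SE 0.14, edgeR adjusted p = 0.018). It lies close to the fold threshold and held in 6 of 18 alternatives, passing the adjusted p in 11, with log2 fold changes of 0.93 to 1.12 and adjusted p up to 0.12. The call was lost without AA replicate 1, CTR replicate 2 or 3 or any of the Igf-1 libraries. ptgs2b had a log2 fold change of -0.79 (edgeR adjusted p = 0.083) and il11a of -0.83 (edgeR adjusted p = 0.12), which did not pass. In DESeq2 these genes passed the adjusted p (DESeq2 adjusted p = 0.00092 and 0.0072) but not the fold threshold. cxcr4a, the receptor of cxcl12 on migrating myoblasts in mammals, had 1757, 1696 and 1617 normalized counts in Igf-1, against 755, 463 and 1314 in CTR. The groups did not overlap, yet the adjusted p was 0.27 in edgeR, and without CTR replicate 3 it was 0.044 with a log2 fold change of 1.47. cxcr4a passed in 2 of 18 alternatives, each of them without CTR replicate 3, with an adjusted p of 0.018 to 0.69 over the alternatives. tnfsf11, the ligand of tnfrsf11a, had 165, 157 and 160 in Igf-1, against 87.3, 88.1 and 91.0 in CTR. These groups were tight and did not overlap, and the adjusted p was 0.22 in edgeR.

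AA cells were also compared with Igf-1 cells. 0 members were higher, against 2.43% of all genes, and 1 was lower, which is 1.3% against 1.89%. The lower one was tnfsf10 (ENSSAUG00010017235), with 83.8, 47.6 and 66.7 normalized counts in AA, against 130, 191 and 219 in Igf-1 (log2 fold change -1.45, SE 0.32, edgeR adjusted p = 0.021), which held in 12 of 18 alternatives and was lost without AA replicate 2 or 3 and Igf-1 replicate 2 or 3. DESeq2 called 1 higher and 3 lower, without a share over all genes to set beside them. In edgeR, 16 had an unadjusted p under 0.05, where 21.4% of all genes had. With the adjusted p alone, tnfrsf19 was higher (4.3% of all genes; log2 fold change 0.69, SE 0.14, edgeR adjusted p = 0.013) and ackr4a, tnfsf10, ptgs2b and tnfrsf11a were lower (4.07%). The log2 fold changes were -0.80 for ackr4a, -0.69 for ptgs2b and -0.68 for tnfrsf11a. Leaving out any 1 AA or Igf-1 library raised the adjusted p of ptgs2b and tnfrsf11a above 0.05 (0.051 to 0.14 and 0.053 to 0.15), and that of ackr4a crossed it without AA replicate 1 (0.054) or Igf-1 replicate 3 (0.052). That of tnfrsf19 crossed it without AA replicate 1 (0.051) or any Igf-1 library (0.055 to 0.075). The median of the 77 was -0.24, against -0.03 over all genes, and 26 members did not overlap, which is 33.8% against 30.3%.

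**Figure D3:**
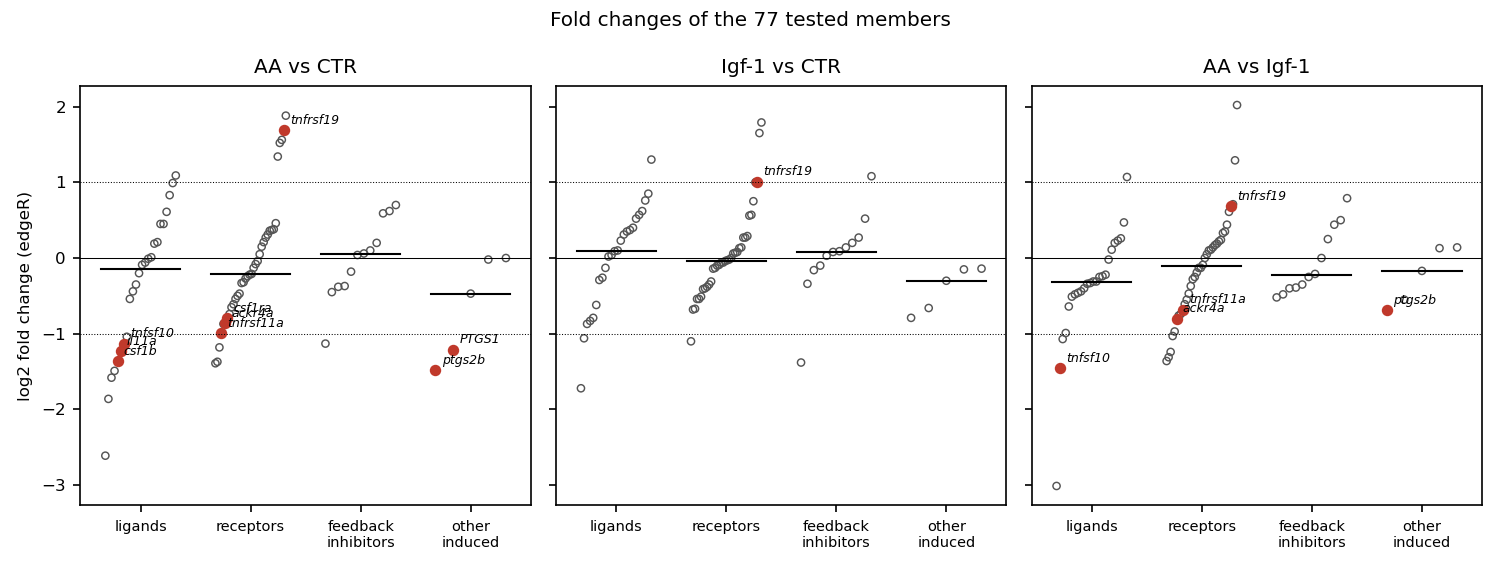
Log2 fold change of the 77 tested members by role in the 3 comparisons (AA vs CTR, Igf-1 vs CTR, AA vs Igf-1); filled points passed the adjusted p of 0.05, open points did not, points are sorted by fold change within a role, bars are medians and dotted lines mark a log2 fold change of 1. Only tnfrsf19 passed above 0 and only 1 point is filled for Igf-1 against CTR.

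Of the feedback inhibitors, 0 of the 12 tested were called in any of the comparisons by edgeR or DESeq2, and 2, 1 and 1 had an unadjusted p under 0.05 in AA against CTR, Igf-1 against CTR and AA against Igf-1, which is 16.7%, 8.33% and 8.33%, against 28.2%, 9.11% and 21.4% of all genes. socs3b, the most expressed of them, had 3028, 3543 and 3923 normalized counts in AA, 4579, 4126 and 5110 in Igf-1 and 4409, 4926 and 4240 in CTR. AA did not overlap with CTR, and the adjusted p was 0.13 in edgeR, with a log2 fold change of -0.37. cish, which the growth hormone receptor switches on in mammals, had 842, 761 and 622 in AA, 542, 446 and 585 in Igf-1 and 508, 350 and 622 in CTR (AA against CTR, log2 fold change 0.59, edgeR adjusted p = 0.14). The 11 Socs and Cish genes summed to 123, 123 and 161 FPKM in AA, 172, 142 and 158 in Igf-1 and 161, 165 and 117 in CTR. The groups of these sums overlap in FPKM, which TMM does not scale, and no sum was taken of the normalized counts. socs6a, chosen after its values were seen, ranged within groups, with 511, 128 and 748 normalized counts in AA, 415, 293 and 96.4 in Igf-1 and 282, 542 and 75.1 in CTR. The ranges of the groups overlapped.

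The other Socs genes were lower than socs3b. socs3a averaged 45.9 FPKM, with normalized counts of 1694, 1806 and 1421 in AA, 2023, 1891 and 1951 in Igf-1 and 2173, 1626 and 1761 in CTR. socs1b had 730, 925 and 639 in AA, 1065, 1015 and 1108 in Igf-1 and 596, 651 and 985 in CTR, so that the Igf-1 libraries lay above all others. This was not called (Igf-1 against CTR, log2 fold change 0.52, edgeR adjusted p = 0.52). socs1a averaged 8.31 FPKM, socs2 0.644 FPKM and cishb 0.152 FPKM, and their groups overlapped between AA and CTR. Of the inhibitors of NF-kappaB, nfkbiaa had 6066, 7057 and 4376 normalized counts in AA, 6585, 6581 and 7037 in Igf-1 and 5338, 4113 and 7278 in CTR. nfkbiab had 3718, 4357 and 2882 in AA, 4033, 4839 and 5080 in Igf-1 and 4249, 4258 and 6458 in CTR.

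Of the chemokine receptors, most are known from leukocytes, and 15 of them, leaving out cxcr4, the atypical ones and CCR11, whose description is that of an atypical receptor, summed to 33.5, 17.6 and 27.1 FPKM in AA, 49.3, 27.7 and 22.5 in Igf-1 and 46.3, 29.9 and 23.8 in CTR. The groups overlapped. Of the 16 ccr and cxcr genes tested, edgeR called 0 in each comparison, with 5, 3 and 3 at an unadjusted p under 0.05 in AA against CTR, Igf-1 against CTR and AA against Igf-1, and DESeq2 called 2, 0 and 1. The unadjusted counts are 31.2%, 18.8% and 18.8% of the 16, against 28.2%, 9.11% and 21.4% of all genes. ccr9b, named after the receptor of Ccl25 and chosen after its values were seen, had 357, 122 and 132 normalized counts in AA, 670, 417 and 416 in Igf-1 and 602, 328 and 642 in CTR. AA replicate 1 lay within the CTR range, and the adjusted p was 0.062 in edgeR (AA against CTR, log2 fold change -1.37) and 0.015 in DESeq2. cxcl12a, the ligand of cxcr4, had 614, 1021 and 849 normalized counts in AA, 793, 776 and 732 in Igf-1 and 686, 988 and 836 in CTR. The genes of ACKR3, its scavenger receptor, averaged 1.4 and 1.13 FPKM. cxcr4b, the other cxcr4 gene beside cxcr4a, had 186, 165 and 133 normalized counts in AA, 462, 314 and 212 in Igf-1 and 313, 256 and 238 in CTR. The AA libraries lay below all others, with no call (AA against Igf-1, log2 fold change -1.03, edgeR adjusted p = 0.067). cxcl12b averaged 0.301 FPKM and rests on few counts. It had 15.0, 27.9 and 26.5 normalized counts in AA, 10.5, 25.0 and 24.1 in Igf-1 and 101, 65.0 and 30.3 in CTR. The CTR libraries lay above all others, with no call. The log2 fold change was -1.49 in AA against CTR (edgeR adjusted p = 0.14) and -1.72 in Igf-1 against CTR (edgeR adjusted p = 0.39).

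Among the Tnf family, tnfrsf21, a receptor with a death domain in mammals, had 4798, 5125 and 7001 normalized counts in AA, 5301, 5147 and 4619 in Igf-1 and 4639, 4461 and 4546 in CTR, and did not pass. tnfaip6, which in mammals binds hyaluronan in inflamed tissue, averaged 30.8 FPKM and had 3205, 2285 and 1506 in AA, 2338, 2172 and 1872 in Igf-1 and 2357, 1735 and 2925 in CTR. Of the genes named for Tnf itself, tnfb averaged 9.69 FPKM and tnfa 1.2 FPKM, and each overlapped between AA and CTR. The AA libraries of tnfb lay below all its Igf-1 libraries, with no call (log2 fold change -0.48, edgeR adjusted p = 0.22). Among the 13 tested interleukins and their receptors, edgeR called 1 lower in AA than in CTR, il11a, which is 7.69% against 3.79% of all genes. It called 0 in the other comparisons. DESeq2 called 2 in AA against CTR, il11a and il17d, 0 in Igf-1 against CTR and 1, il13ra2, in AA against Igf-1. At an unadjusted p under 0.05 there were 2, 1 and 2 in the 3 comparisons, or 15.4%, 7.69% and 15.4%, against 28.2%, 9.11% and 21.4% of all genes.

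Some symbols and descriptions in the table disagree. CCR11 is described as an atypical chemokine receptor, ccl4 and CCL21 as other chemokines, cxcr1 and ccr10 as receptors of another type, and 1 of the il10rb genes as an interferon receptor, so that a symbol alone does not settle a role here. The cxcr3 genes lie next to each other in the RefSeq assembly, and both genes named crlf3 map to 1 RefSeq gene, so reads shared between such copies, where they are alike, may have been split in counting and their values are uncertain.

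The pathways that these receptors use were read from lists of named genes. Of 32 Jak-Stat genes, all tested, 2 were higher in AA than in CTR, which is 6.25% against 4.83% of all genes tested, and 1 was lower, which is 3.12% against 3.79%. The median log2 fold change of the list was -0.14, against -0.01 over all genes. The lower one, cebpd, a transcription factor switched on by Stat3 in mammals, had 838, 886 and 445 normalized counts in AA, 1712, 1716 and 2135 in Igf-1 and 2462, 2436 and 3078 in CTR. Its log2 fold change was -1.88 against CTR (edgeR adjusted p = 0.00091) and -1.36 against Igf-1 (edgeR adjusted p = 0.0088). The higher ones were bcl6b, a transcriptional repressor (log2 fold change 1.43, edgeR adjusted p = 0.0052), and ptpn2a, a phosphatase that acts on Jak and Stat proteins in mammals (1.06, edgeR adjusted p = 0.011). The list holds bcl6, and bcl6b was matched to it by its final letter. Whether it is a copy of bcl6 was not checked. With no fold threshold, 2 were higher (6.25% against 7.46% of all genes) and 4 lower (12.5% against 7.74%). This added pim1, pim3 and stat1b, with log2 fold changes of -0.82, -0.64 and -0.65 (edgeR adjusted p = 0.0045, 0.022 and 0.035).

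Of 38 NF-kappaB genes, 0 passed with the fold threshold and 5 were lower in AA than in CTR with the adjusted p alone, which is 13.2% against 7.74% of all genes: ikbke, nfkb2, irak4, xiap and myd88, with log2 fold changes of -0.61, -0.95, -0.92, -0.99 and -0.50. DESeq2 also called 0 with the fold threshold, and 13 of the 38 had an unadjusted p under 0.05 in edgeR, which is 34.2% against 28.2%. The median log2 fold change of the list was -0.06. nfkb2, a subunit of NF-kappaB, had 5770, 6558 and 6281 normalized counts in AA, 8550, 7653 and 11047 in Igf-1 and 10950, 12092 and 12828 in CTR. Of the prostaglandin list, 17 of 23 genes were tested, with a median of -0.43 in AA against CTR; 1 was called higher, which is 5.88% against 4.83% of all genes, and 0 lower, with 8 at an unadjusted p under 0.05 (47.1% against 28.2%) and 3 calls in DESeq2. ptges3a, a cochaperone also described as a prostaglandin E synthase, was higher in AA than in CTR (log2 fold change 1.37, edgeR adjusted p = 0.014) and than in Igf-1 (1.24, edgeR adjusted p = 0.034, lost without any 1 of the AA or Igf-1 libraries), and pla2g4ab, a phospholipase that releases the substrate of cyclooxygenases, was lower in AA than in CTR without the fold threshold (log2 fold change -0.96, edgeR adjusted p = 0.0056). In Igf-1 against CTR, edgeR called 0 genes of the 3 lists, with 2 Jak-Stat, 4 NF-kappaB and 2 prostaglandin genes at an unadjusted p under 0.05 (6.25%, 10.5% and 11.8%, against 9.11% of all genes), and DESeq2 called 1, bcl6b. It had 2078, 1714 and 1421 normalized counts in Igf-1, against 614, 455 and 847 in CTR.

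**Figure D4:**
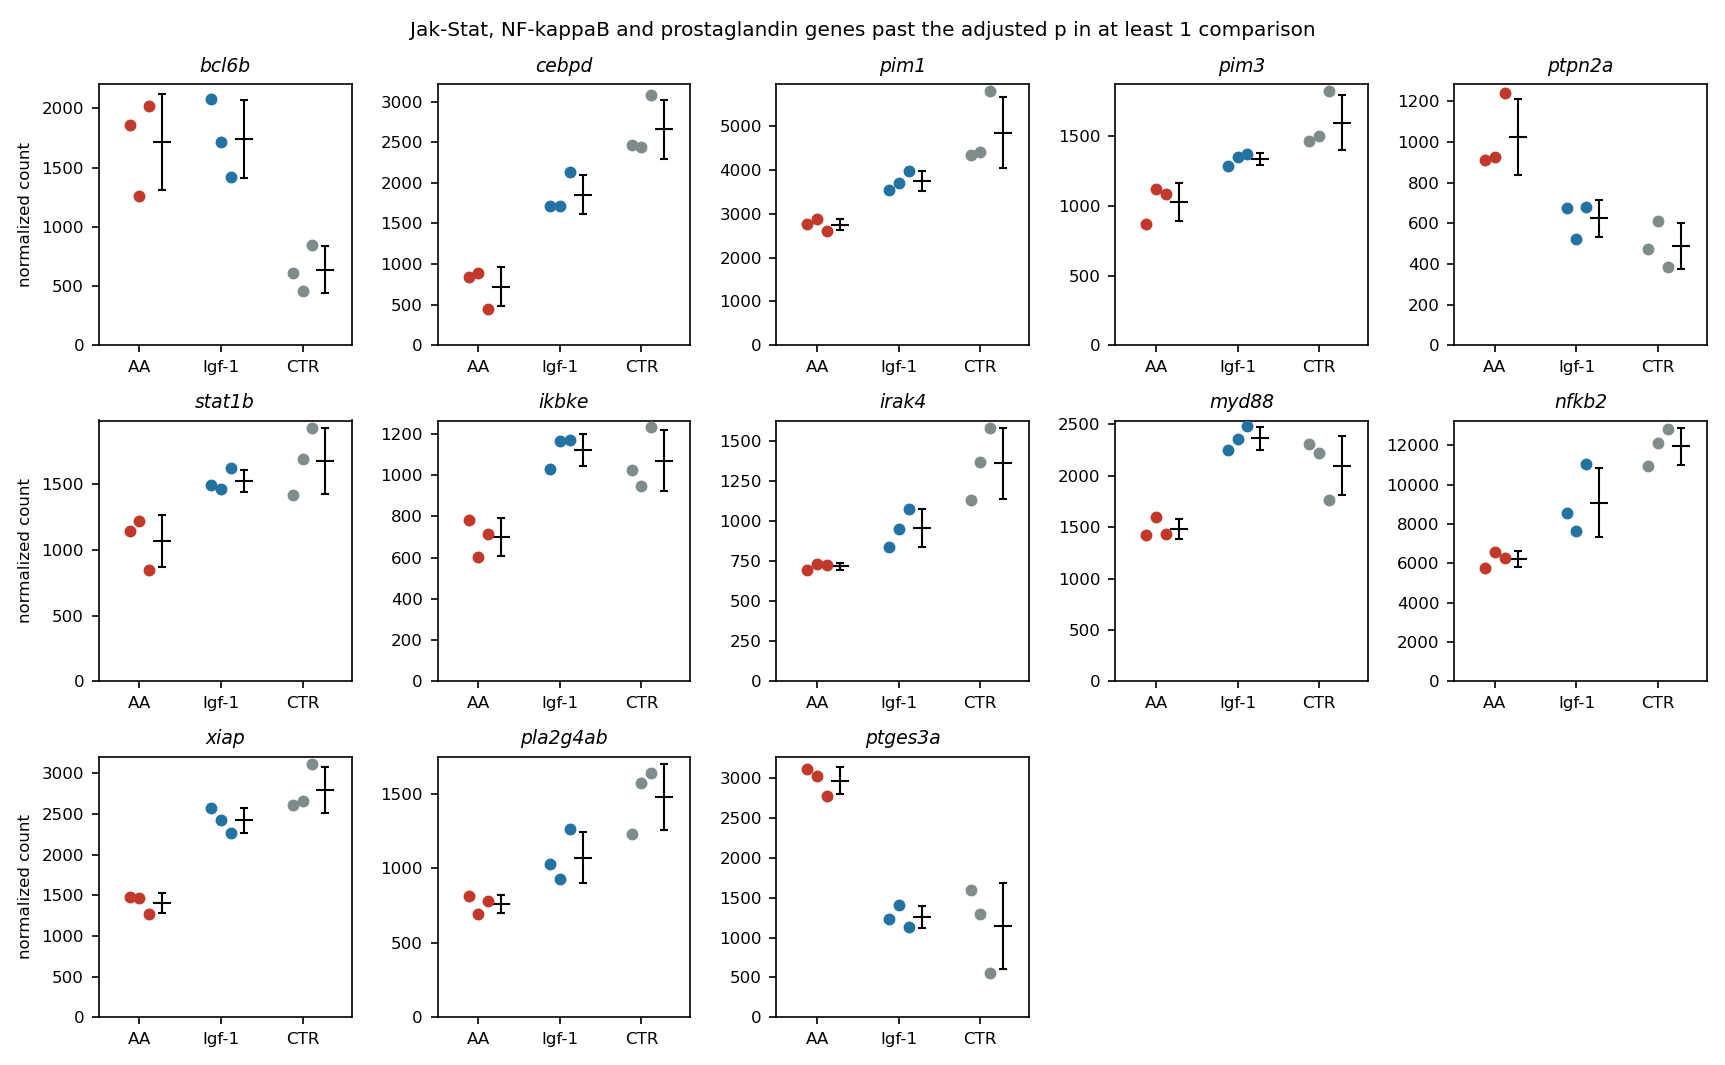
Normalized counts of the 13 genes of the Jak-Stat, NF-kappaB and prostaglandin lists that passed the adjusted p in at least 1 comparison; each point is 1 library of AA, Igf-1 or CTR and the bar beside it is the mean with its SD (n = 3). bcl6b, ptpn2a and ptges3a are higher in AA than in CTR, and the other 10 are lower.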

How the data were processed

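The authors mapped the reads with HISAT2 and estimated expression with StringTie, per the labels and methods; the genome build, and how strand was used in counting with the stranded poly(A) kit, are not given in the sources used here. The deposited table holds an estimated count per gene, whole numbers that peak at 4, 8 and 12, and was used where plain counts had been planned. The deposited FPKM values cover AA and Igf-1 fully and CTR only for genes the authors called, so FPKM of CTR was computed from its counts. For genes with both and more than 100 counts in the CTR library, 99.8% or more agreed within 0.05 on the log2 scale. Genes with fewer counts were not checked. The deposited fold changes and p-values of the authors, and the lncRNA table, were not used. Genes with low counts were removed with filterByExpr, TMM factors ran from 0.791 to 1.21, and 1 quasi-likelihood model of edgeR 4.0.16 (R 4.3.3) held the 3 groups. DESeq2 1.42.0 and limma 3.58.1 on log2(FPKM + 0.1) and log2(FPKM + 1) were alternatives. The scripts were tested on simulated data. Members and lists were chosen with earlier results of these data known. Genes named were those that passed, the 10 with the highest FPKM, the 3 smallest adjusted p per comparison and members known in muscle; tnfsf11, socs6a, ccr9b, tnfa, tnfb, crlf1a, ccr12a, il17d and il13ra2 were chosen after their values were seen, as was the alternative without AA replicate 2 and CTR replicate 3. RefSeq (fSpaAur1.1) served only for neighbouring genes; 82 of 91 members matched it.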

Additional observations from a re-analysis of the deposited data

How the results depend on the processing

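The tnfrsf19 and ptgs2b calls in AA against CTR held in all 18 alternatives. The number of members higher in AA than in CTR was 2 with DESeq2, with counts divided by 4 and on log2(FPKM + 0.1), and the number lower was 1 on log2(FPKM + 1) and 8 with the adjusted p alone. Their median log2 fold change was -0.09 with counts divided by 4, -0.05 on log2(FPKM + 0.1) and -0.02 on log2(FPKM + 1). The median over all genes is given for the main fit alone. Whether the members moved against all genes in the alternatives therefore cannot be read from these medians or those below. For Igf-1 against CTR, the number higher was 0 with RLE size factors, DESeq2, only the 2 groups compared, the replicate block and log2(FPKM + 1). For AA against Igf-1, the number higher was 1 with DESeq2 and with the adjusted p alone, and the number lower was 3 with DESeq2, 4 with the adjusted p alone and 0 with the replicate block and on log2(FPKM + 1), where the median was -0.11. With the adjusted p alone, 4 Jak-Stat genes (12.5%) and 5 NF-kappaB genes (13.2%) were lower in AA than in CTR, against 7.74% of all genes. Lower in AA than in Igf-1 were 3 NF-kappaB genes, which is 7.89% against 4.07%. A Jak-Stat gene, 1 in each case, was higher in Igf-1 than in CTR with DESeq2, with no filter and with counts divided by 4. Of the prostaglandin list, 2 were higher in AA than in CTR with DESeq2 and on log2(FPKM + 1), 1 was lower with DESeq2, the replicate block and the adjusted p alone, and 0 were higher than in Igf-1 with the block and on both FPKM scales. The cause of these shifts was not tested.

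Leaving out 1 library at a time, or AA replicate 2 and CTR replicate 3 together, gave 1 to 2 members higher and 3 to 5 lower in AA than in CTR, 0 to 1 higher in Igf-1 than in CTR, 0 to 2 lower in AA than in Igf-1, and medians of -0.2 to -0.13, -0.08 to 0.04 and -0.29 to -0.19 in the 3 comparisons. The count of members higher in AA was 2 without CTR replicate 1 or CTR replicate 3, that of members lower was 3 without CTR replicate 2, and that of members lower in AA than in Igf-1 was 2 without AA replicate 1 and 0 without AA replicate 3, Igf-1 replicate 2 or Igf-1 replicate 3. Jak-Stat genes higher were 1 to 2 in AA and 0 to 1 in Igf-1 against CTR, and 1 to 2 were lower in AA. NF-kappaB genes were 0 to 1 higher and 0 to 3 lower (3 without CTR replicate 1), and prostaglandin genes 1 to 2 higher and 0 to 2 lower, in AA than in CTR, and 0 to 1 prostaglandin genes were higher in AA than in Igf-1. The log2 fold change of Igf-1 against CTR changed sign for ackr4a without CTR replicate 2 (0.08) and for csf1ra on both FPKM scales (0.01 each), without Igf-1 replicate 3 (0.1) and without CTR replicate 3 (0.03), within ranges of -0.13 to 0.08 and -0.17 to 0.1 when 1 library was left out; neither gene had passed. Libraries with the same number correlated with r of -0.39 to 0.218, and not every library correlated best with its own number. The correlations are of deviations from the means of groups of 3 libraries. They cannot settle whether the numbers mark shared cultures. Under the replicate block, 0 members were higher in Igf-1 than in CTR and 0 lower in AA than in Igf-1. Members under 1 FPKM rest on few counts.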
